A study of Mus musculus with 67 samples.

Results

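Cultured microglia, which are macrophages of the brain, were compared between Orai1 KO and WT after 6 h with thapsigargin and PDBu (Tg+PDBu). The comparison comprised 11 libraries of the 67 in the series, 5 from KO and 6 from WT cultures, chosen by the genotype and treatment in their library names. They were 2 KO female, 3 KO male, 3 WT female and 3 WT male libraries. WT cultures came from Orai1fl/fl mice and KO cultures from Orai1fl/fl Cx3CR1-cre/ERT2 mice, so both genotypes carried the floxed alleles and only KO carried the tamoxifen-inducible Cre. All cultures were grown from the hippocampus of newborn mice, received 1 µM hydroxytamoxifen in the flask, and were shaken off an astrocyte layer. They were then kept in serum-free medium with TGF-β2 and CSF1, and treated with 0.2 µM thapsigargin and 50 nM PDBu. Libraries were made from 100 ng of RNA. Vehicle (DMSO, 12 libraries) and LPS at 10 ng/ml (11 libraries) were the other treatments of these cultures. The Cre is driven from the Cx3cr1 locus and is absent from WT, so an effect of Orai1 loss and an effect of the Cre cannot be told apart. The count table pairs no row with a gene name, and rows are therefore given by their number from the top. For the same reason neither the level of Orai1 nor that of microglia or astrocyte markers was examined.

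Orai1 is the pore-forming subunit of the store-operated calcium channel of the plasma membrane, which is opened by STIM proteins that sense the calcium content of the endoplasmic reticulum. Thapsigargin blocks the pump that refills the reticulum, so the stores empty and the channel opens. PDBu, a phorbol ester, mimics diacylglycerol and switches on protein kinase C. Calcium that enters through this channel activates calcineurin, which lets NFAT transcription factors enter the nucleus. Phorbol ester signalling acts on AP-1 and NF-κB factors, and the agents are combined to drive both branches at the same time.

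The 11 libraries held 8379739 to 15591237 counts. Cultures are named here by genotype, sex (F or M) and number, as in the library names (KOF16 is KO female culture 16). Row 1, which was at 0 counts in all 6 WT libraries, held 0, 2, 4, 1 and 2 counts in KOF16, KOF7, KOM18, KOM6 and KOM8. Its pooled KO level of 0.135 CPM (counts scaled to library size) was at least 2.56-fold higher than the 0.0527 CPM that 3 counts over the WT libraries would give. In KO cultures with vehicle the same row reached 10.4 ± 2.21 CPM (SD, n = 6). Sex-specific rows went mostly with the labelled sex in the libraries other than WTF3. The female-specific row was also detected in WTM9, and male-specific rows at a low level in KOF7 and WTF14. In WTF3, labelled female, the summed level of 4 male-specific rows was 106 CPM, against 192 to 222 CPM in the 6 male libraries. In the other 4 female libraries it was 5.03 (KOF7), 3.02 (WTF14), 0.366 (WTF12) and 0 CPM (KOF16). The female-specific row 28290 was at 290 CPM in WTF3 and at 583 to 1174 CPM in the other female libraries. Among male libraries it was at 19.3 CPM in WTM9 and at 0 to 1.50 CPM in the others. In WTM9 it was at 12.6 CPM with vehicle and 34.1 CPM with LPS. The counts of rows called with Tg+PDBu, in females, between the sexes and against vehicle and LPS are also given without WTF3. The overlaps of lists, the library measures and the library scores were not recomputed without it.

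KO and WT cultures differed in a large share of the rows under Tg+PDBu. Of 15979 rows tested, 4514 were higher in KO (28.2%) and 4562 were lower (28.5%), which together is 56.8% of the rows (edgeR, adjusted p under 0.05). Fold changes were unequal in the 2 directions. The median log2 fold change was 1.72 among the rows called higher and -0.65 among those called lower, beside -0.01 over all rows. More than 2-fold differences were found for 3281 higher and 1261 lower rows, more than 4-fold for 1660 and 297, and more than 16-fold for 63 and 31. In 3083 of the rows called higher (68.3%) all 5 KO libraries lay above all 6 WT libraries. In 3234 of those called lower (70.9%) all 5 lay below. Over all rows tested, 3146 lay above and 3328 below in this way, together 40.5% of the rows. The calls and these counts rest on the same libraries. Without WTF3, 4598 rows were called higher and 4723 lower.

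The libraries separated by genotype. The first principal component held 61.9% of the variance of log2 CPM. KO libraries lay at 86.8, 47.7, 81.7, 75.3 and 86.0 on it (KOF16, KOF7, KOM18, KOM6 and KOM8), and WT libraries lay between -95.4 and -22.7. KOF7 was the KO library nearest to WT. WTF3 at -22.7, WTM4 at -38.4 and WTM9 at -53.2 were the WT libraries nearest to KO, and the other 3 lay between -95.4 and -81.9. Across rows, the Spearman correlation was 0.971 to 0.985 in 10 pairs of KO libraries, 0.965 to 0.983 in 15 pairs of WT libraries and 0.886 to 0.964 in 30 pairs of unlike genotype. These values share rows and differ in depth, and are given as a description.

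**Figure D1:**
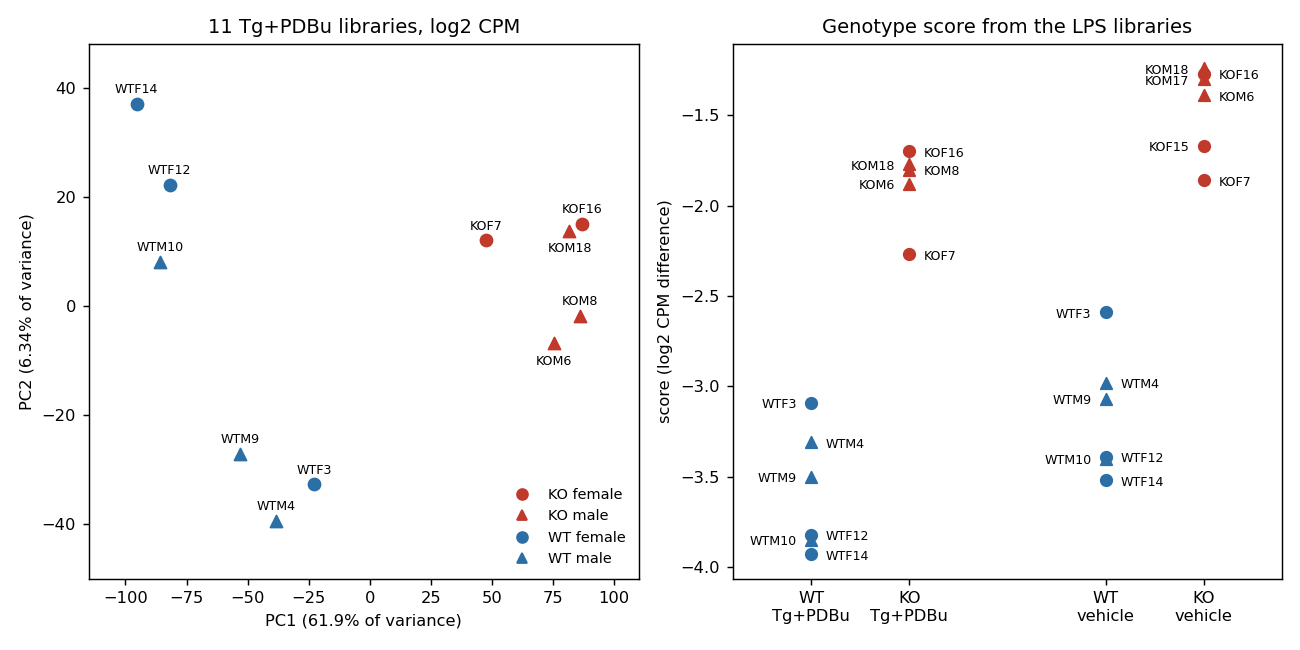
Left, the 11 Tg+PDBu libraries on the first (x) and second (y) principal component of log2 CPM, in arbitrary units. Right, a genotype score in log2 CPM units, built from rows that differed between KO and WT in the LPS libraries and read in each Tg+PDBu and vehicle library. Red is KO, blue is WT, circles are females and triangles males. The KO and WT libraries do not overlap on PC1 or on the score, and KOF7 and WTF3 are the nearest to the other genotype.

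Low and abundant rows differed in opposite directions. Rows were grouped by their mean log2 CPM over the 34 culture libraries. Among the 3587 rows with a mean under 1, 1173 were higher in KO and 299 lower, and the median log2 fold change was 0.96. Among the 4457 rows from 1 to 4, 1861 were higher and 712 lower, with a median of 0.33. The 6517 rows from 4 to 7 gave 1359 higher and 2594 lower, with a median of -0.17. The 1418 rows over 7 gave 121 higher and 957 lower, with a median of -0.46. Abundant rows over 7 took up 53.4% to 56.2% of the counts of the KO libraries and 61.8% to 63.8% of those of the WT libraries. Rows under 1 took up 0.471% to 0.554% in KO and 0.248% to 0.325% in WT. The gradient was also present in the genotype difference with vehicle, where the medians from the lowest to the highest class were 1.13, 0.32, -0.14 and -0.30, and with LPS, where they were 1.18, 0.61, -0.20 and -0.52.

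The direction of the abundant classes rests on the scaling. TMM factors, which scale the libraries to a common level, were 1.14 to 1.22 in KO and 0.858 to 0.991 in WT. With total counts and no such factor, the median log2 fold change over all rows moved to 0.39, and 7160 rows were called higher and 1878 lower. The medians of the classes then ran 1.33, 0.72, 0.23 and -0.06. Leaving out the factors shifts the rows of all classes by about the same amount, so the sign of a class near 0 depends on it, and the order of the classes could not change. The split between higher and lower is therefore relative to the TMM scale, and the counts do not show how much RNA each cell held. In such bulk libraries, fewer cells of a type and less RNA per cell cannot be told apart.

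More rows were detected in KO, and fewer counts sat in the most abundant rows. Rows with a count numbered 18929, 19297, 19529, 19779 and 18916 in the KO libraries, and 17467 to 18576 in WT, with a mean of 17887 ± 401 (SD, n = 6). No KO library fell among the WT libraries, although WTF12, at 15591237 counts, was the deepest of the 11. The 10 most abundant rows took up 7.12% ± 0.594 of the counts in KO (SD, n = 5) and 10.7% ± 0.563 in WT (n = 6). The 100 most abundant rows took up 19.2% ± 0.699 and 25.5% ± 0.858. In exact two-sided permutation tests p was 0.00433 for rows detected and 0.00216 for each of the 2 shares and for the TMM factor (adjusted over 5 measures, 0.00541 and 0.00361), where 0.00216 is the smallest p that 5 against 6 libraries can give. Total counts gave p = 0.645 in the same exact permutation test, with means of 11201288 and 10514410. How far these differences in composition and the differences of single rows depend on each other was not tested.

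**Figure D2:**
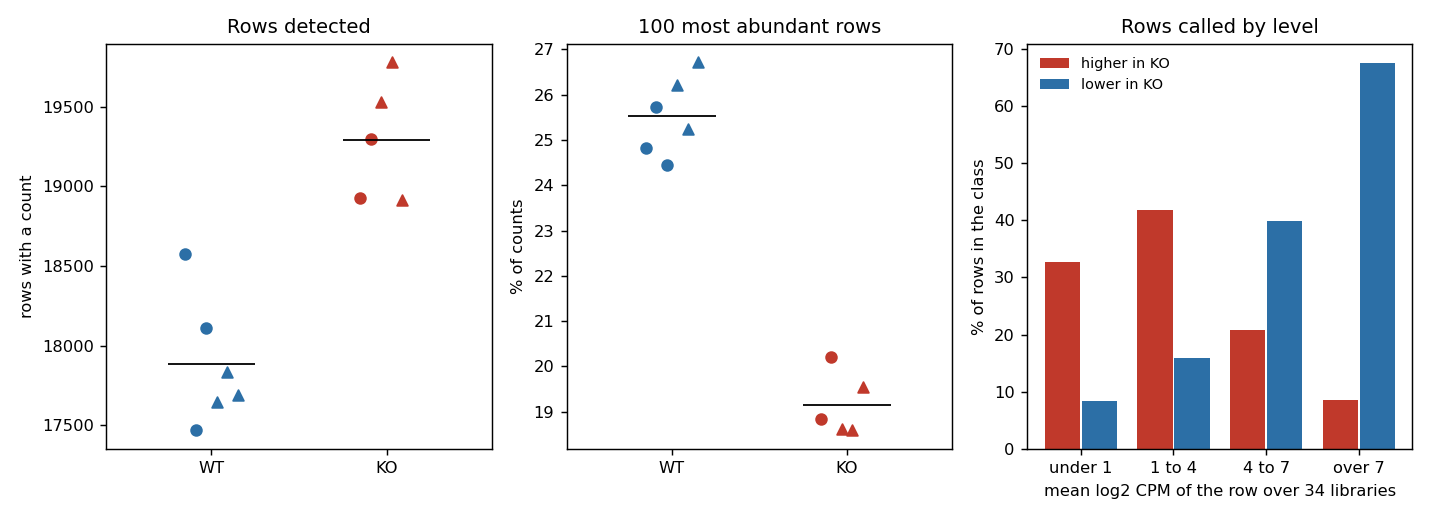
Left and middle, number of rows with a count and percent of counts in the 100 most abundant rows, one point per Tg+PDBu library (red KO, n = 5, blue WT, n = 6, circles females, triangles males, line at the mean). Right, percent of rows called higher (red) or lower (blue) in KO in each class of mean log2 CPM. The genotypes do not overlap in the left and middle panels, and calls pass from mostly higher in the lower classes to mostly lower in the upper classes.

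Among called rows averaging 1 or more in log2 CPM over the 34 culture libraries, the largest fold changes were at low to moderate level. Row 3599 was at 0.360, 1.80, 0.605, 0.670 and 0.450 CPM in KOF16, KOF7, KOM18, KOM6 and KOM8. In the 6 WT libraries it ranged from 18.3 to 49.1 CPM with a median of 27.4. All 5 KO libraries lay below the lowest WT library, and KOF7 was the nearest to it. The log2 fold change was -5.21 ± 0.54 (SE, adjusted p = 3.83e-08), a 37.1-fold lower level, and it was -6.03 without KOF7. The same row was lower in KO with vehicle (-4.08 ± 0.52, adjusted p = 6.95e-07) and with LPS (-4.68 ± 0.60, adjusted p = 4.61e-07).

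Row 8567 held 0, 0, 0, 2 and 1 counts in the KO libraries and 12 to 37 counts in each WT library. The pooled WT level was 2.48 CPM and the pooled KO level 0.0449 CPM, a ratio of 55.2 with an exact 95% counting interval of 18.5 to 270.7 (adjusted p = 4.42e-05 in the edgeR test). The interval covers counting error only. With vehicle the row was near 0 in both genotypes, at 0.0520 ± 0.0948 CPM in KO and 0.146 ± 0.151 CPM in WT (SD, n = 6 each). With LPS it reached 16.8 ± 13.4 (n = 5) and 221 ± 131 CPM (n = 6). Its mean log2 CPM over the 34 culture libraries was 1.11, and it passed the limit of 1 for naming through its LPS libraries. Rows as low with Tg+PDBu and not raised by LPS could not be named.

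Among rows higher in KO, row 709 was at 14.5, 17.04, 13.7, 17.4 and 7.28 CPM in the KO libraries and at 0.113 to 1.07 CPM in WT, with a median of 0.180. Every KO library lay above every WT library. The log2 fold change was 4.95 ± 0.84 (adjusted p = 2.60e-05), which is 30.9-fold. It was 5.73 without WTF3 and 5.65 without WTM4. Row 1805 was higher on average by 5.31 ± 1.33 (adjusted p = 0.00152), and its KO libraries fell into separate levels. KOF16, KOF7 and KOM18 were at 54.1, 45.3 and 42.2 CPM, and KOM6 and KOM8 at 3.90 and 4.41 CPM, all above the WT range of 0.322 to 1.82 CPM. The split did not follow sex, since KOM18 was high and the other male libraries low. KOF16 and KOF7, high here, were at 3.11 and 3.21 CPM with vehicle, and KOM18 was at 89.3 CPM. The 6 KO values with vehicle ran from 3.11 to 114.5 CPM with a median of 3.98. With LPS the KO values ran from 1.75 to 114.8 CPM, and WTM4 and WTM9 reached 68.4 and 68.2 CPM beside 0.347 to 0.915 CPM in the other WT libraries, so the genotypes overlapped. Without KOM18 the log2 fold change with Tg+PDBu was 4.30 (adjusted p = 0.00837). With limma-voom the adjusted p of row 1805 was 0.0883. With the culture as a replicate block, also fitted with limma-voom, it was 0.0505.

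By difference in CPM, the greatest was in row 7224. It took 7784, 11684, 8147, 8594 and 7989 CPM in the KO libraries and 25108 to 36624 CPM in WT, with a mean of 31031 ± 4801 CPM (SD, n = 6). KOF7 was the highest KO library and still lay far below WTM4, the lowest of WT. The log2 fold change was -1.79 ± 0.17 (adjusted p = 7.95e-09). With vehicle the genotypes were at 6291 ± 1329 and 6562 ± 598 CPM (n = 6 each), a log2 difference of -0.07 ± 0.15 (adjusted p = 0.716), and the change of the genotype difference between the treatments was -1.72 ± 0.22 (adjusted p = 8.15e-06).

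Row 5811 was also lower in KO, at 11590 ± 678 CPM (n = 5) against 21031 ± 2607 CPM in WT (n = 6), and the groups did not overlap. Its log2 fold change was -0.86 ± 0.14 (adjusted p = 1.34e-05). In both genotypes this row was at far lower levels with vehicle, 549 ± 41.6 CPM in KO and 676 ± 84.9 CPM in WT. In the KO libraries other than KOF7 it held more counts than any other row, whereas in KOF7 and in all 6 WT libraries that place was held by row 7224.

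Row 5415 and row 6643 had the greatest gains in CPM in KO. Row 5415 was at 2594, 2204, 2949, 2632 and 4591 CPM in the KO libraries and at 896 to 1506 CPM in WT (log2 fold change 1.27 ± 0.20, adjusted p = 8.77e-06). KOM8 stood highest, and the lowest KO library, KOF7, was above all of WT. A difference of like size was present with vehicle (1.43 ± 0.19, adjusted p = 1.38e-06). Row 6643 was at 1916, 1383, 1730, 1514 and 1756 CPM in KO and at 333 to 807 CPM in WT (1.67 ± 0.21, adjusted p = 3.94e-07). With vehicle it was lower in both genotypes, at 327 ± 93.5 and 125 ± 49.1 CPM, and the log2 difference there was 1.43 ± 0.20 (adjusted p = 2.11e-06).

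**Figure D3:**
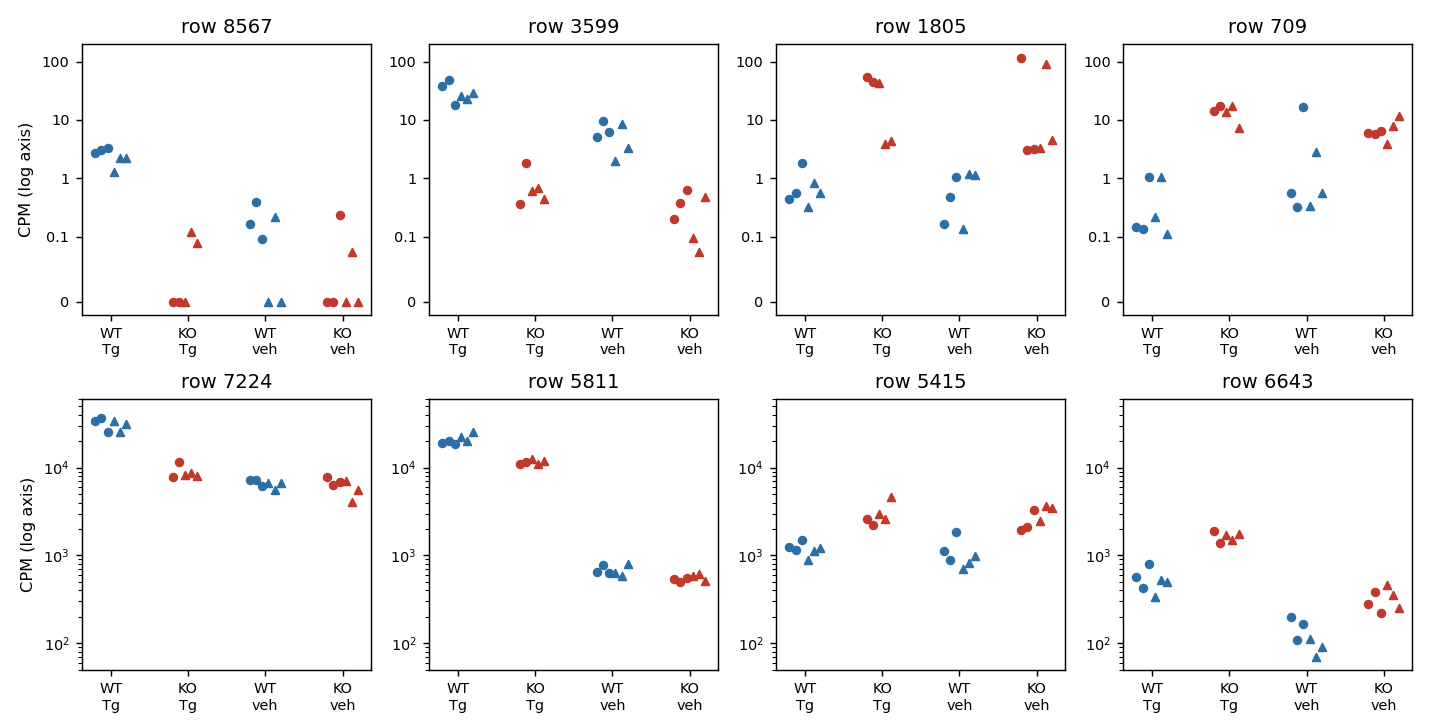
CPM of the named rows with the largest fold changes (top) and the largest CPM differences (bottom). Points are the Tg+PDBu (Tg) and vehicle (veh) libraries of WT (blue) and KO (red), circles females and triangles males. The y axes are logarithmic, in the top panels linear below 0.1 so that 0 can be shown. With Tg+PDBu the genotypes do not overlap in any of the 8 rows, while for rows 8567, 709, 7224 and 5811 they do with vehicle.

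**Figure D4:**
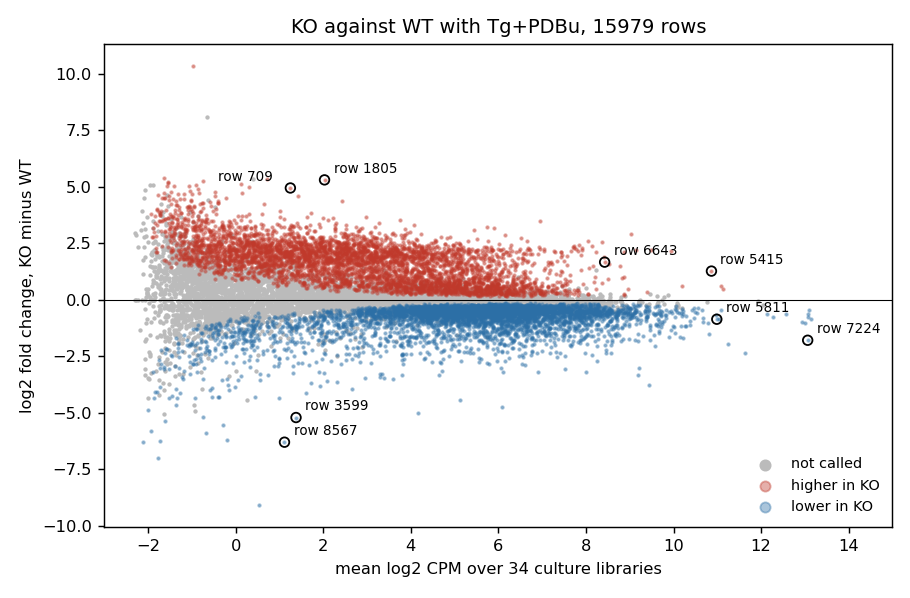
Log2 fold change KO minus WT with Tg+PDBu (y) against mean log2 CPM over the 34 culture libraries (x), one point per row, red called higher, blue called lower and grey not called. Named rows are circled. Red points lie far from 0 at low levels and blue points dominate above a mean log2 CPM of 7.

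The genotype difference was read in each sex on its own. In females (2 KO, 3 WT) 5548 rows were called (34.7%), 2718 higher and 2830 lower, and in males (3 against 3) 7188 rows (45.0%), 3578 higher and 3610 lower. Of these, 2344 were called higher in both sexes and 2496 lower in both, and 1 was called in opposite directions. The sexes share no library, and the Spearman correlation of their log2 fold changes across the 15979 rows was 0.830, given as a description. With 1 KO female library left out, the remaining one is assumed to vary like the other groups. Without KOF16, 1992 rows were called in females, and without KOF7, 4967. Without WTF3 the number was 6216.

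A test of the difference between the sexes called 1 row, row 19273 (0.00626% of rows). An unadjusted p under 0.05 was found for 368 rows, where 799 would be expected if no row differed. Fewer rows than expected passed, so the lack of calls does not show that the sexes agree. DESeq2 called 4 rows and limma-voom none. Row 19273 had 0 counts in both KO female libraries, and 58, 23 and 4 counts in KOM6, KOM18 and KOM8. In WT females it held 33, 20 and 39 counts, in WTM10 it held 8, and in WTM4 and WTM9 it held 0. Values thus ran from 0 to 3.53 CPM within KO and from 0 to 4.18 CPM within WT. The call was lost with WTF3 left out (adjusted p = 0.126) and with the culture as a replicate block (adjusted p = 0.348).

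Most of the genotype difference was shared with the resting cultures. The vehicle and LPS comparisons use other libraries of the same cultures, so no library is shared but the cultures are. With vehicle, 4807 rows were higher in KO (30.1%) and 3784 lower (23.7%). Of the rows called with Tg+PDBu, 3419 were also higher with vehicle, 75.7% of the Tg+PDBu list and 71.1% of the vehicle list. For lower rows the overlap was 2592, 56.8% and 68.5% of the lists. Opposite calls were made for 137 rows higher and 129 rows lower with Tg+PDBu. With LPS, 5312 rows were higher (33.2%) and 4809 lower (30.1%). The overlap with Tg+PDBu was 3446 higher rows (76.3% and 64.9% of the lists) and 3076 lower rows (67.4% and 64.0%), and 185 and 240 rows were called in opposite directions. Across rows, the Spearman correlation of the Tg+PDBu fold changes was 0.730 with those of vehicle and 0.718 with those of LPS, as a description.

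The order of the cultures was looked at with rows that differed between the genotypes with LPS. The mean log2 CPM of the 5312 higher rows minus that of the 4809 lower rows was taken in each Tg+PDBu library. KO libraries scored -1.70, -2.27, -1.77, -1.88 and -1.80 (KOF16, KOF7, KOM18, KOM6 and KOM8) and WT libraries -3.93 to -3.09, so the genotypes did not overlap. From the lowest score upward the WT cultures were WTF14, WTM10, WTF12, WTM9, WTM4 and WTF3. Their order was the same with vehicle, where WT ran from -3.52 to -2.59 and KO from -1.86 to -1.24. KOF7 was the lowest KO culture under both treatments. WTF3 was the WT culture nearest to KO under both. It is also the culture labelled female that held male-specific rows beside a reduced level of the female-specific row. Row 1, at 10.4 CPM on average in KO cultures with vehicle, held 0 counts in WTF3 with Tg+PDBu, vehicle and LPS. Where the male-specific rows of WTF3 came from was not tested. The rows of the score were chosen with LPS libraries of the same cultures, so the scores are a description.

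The genotype difference depended on the treatment for a minority of rows. The KO-WT difference was higher with Tg+PDBu than with vehicle for 772 rows (4.83%) and lower for 1219 (7.63%), and the median of this change over all rows was -0.12 on the log2 scale. Among the 772, the median KO-WT difference was 0.47 with Tg+PDBu and -0.42 with vehicle. Among the 1219 it was -0.68 and 0.06. The split depended on the scaling: it was 1070 and 876 with RLE size factors, and 1572 and 542 with total counts alone. With the culture as a replicate block, 1268 rows were higher and 2060 lower. That fit used limma-voom in place of edgeR, and the fact that the same cultures received both treatments. Limma-voom with quality weights and no block gave 1140 and 1857. How much of the rise goes with the block was not tested. Without KOF16, 788 rows were lower. With no library of culture WTF3, 887 rows were higher and 1474 lower.

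Row 6097 and row 3069 had the largest changes towards lower levels in KO. Row 6097 was at 7.02, 23.8, 4.24, 7.19 and 4.23 CPM in the KO libraries with Tg+PDBu and at 74.8 to 367 CPM in WT, with WTF3, WTM4 and WTM9 below 90 CPM and the other 3 above 255 CPM. With vehicle both genotypes were low, at 2.25 ± 1.15 CPM in KO and 1.51 ± 2.30 CPM in WT (n = 6 each). The genotype difference changed by -5.19 ± 1.01 (adjusted p = 0.00106, and 0.0662 with the replicate block). Row 3069 was at 1.44 to 7.73 CPM in KO and 36.8 to 74.8 CPM in WT with Tg+PDBu, and at 0.753 ± 0.403 and 0.364 ± 0.362 CPM with vehicle (change -5.12 ± 1.00, adjusted p = 0.00117, and -5.94 without KOF7). For both rows KOF7 was the highest KO library. Both were lower in KO with LPS too, by -3.19 ± 0.63 and -3.39 ± 0.52.

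Row 8635 was the reverse case. It was at 8.01, 12.5, 8.14, 9.02 and 13.1 CPM in KO and 1.47 to 4.93 CPM in WT with Tg+PDBu, and lower in KO with vehicle, at 3.53 ± 1.03 against 9.99 ± 2.74 CPM. The genotype difference was 1.80 ± 0.25 with Tg+PDBu and -1.52 ± 0.24 with vehicle, a change of 3.32 ± 0.35 (adjusted p = 6.84e-07). Row 709, described above, changed by 3.56 ± 1.08 (adjusted p = 0.0295). Its vehicle level in WT was 0.318 to 16.8 CPM, the highest value being WTF3. With no library of that culture the change was 2.49 (adjusted p = 0.0579). With its Tg+PDBu library alone left out it was 4.33, and without that of WTM4 it was 4.26.

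**Figure D5:**
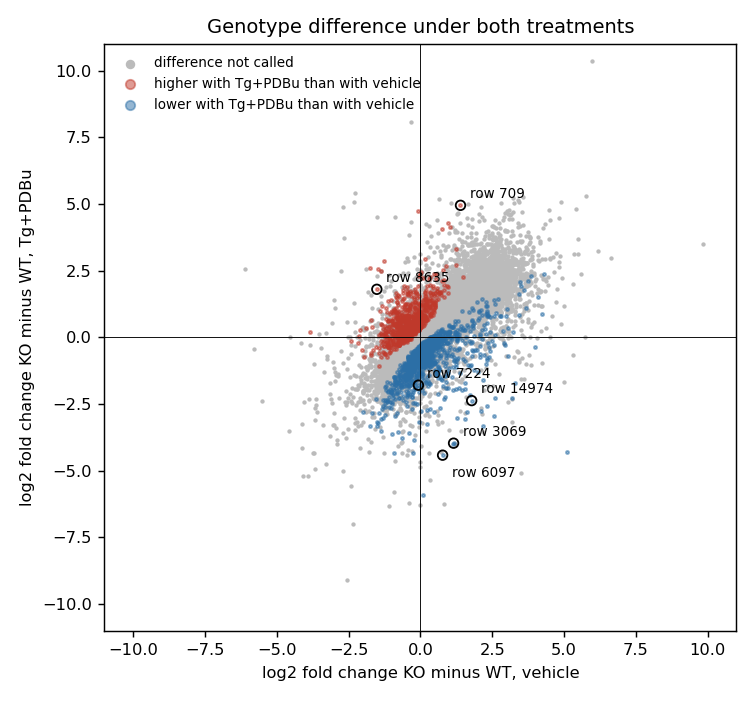
Log2 fold change KO minus WT with Tg+PDBu (y) against that with vehicle (x), one point per row, with rows whose genotype difference was called higher (red) or lower (blue) with Tg+PDBu than with vehicle. Named rows are circled. Rows 14974, 3069 and 6097 lie to the right of 0 and below it, and row 8635 lies to the left of 0 and above it.

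Against LPS, the genotype difference with Tg+PDBu was higher for 1451 rows (9.08%) and lower for 1515 (9.48%). This split also moved with scaling, to 1794 and 1275 with RLE size factors and to 931 and 2199 with total counts alone. With no library of culture WTF3 it was 1697 and 1831. Row 14974 was at 13.6, 20.9, 19.4, 19.9 and 10.4 CPM in KO and 65.7 to 120.9 CPM in WT with Tg+PDBu, so that all KO libraries lay below all WT libraries (log2 fold change -2.37 ± 0.32, adjusted p = 1.24e-06). With LPS it was higher in KO, at 5.52 ± 1.51 (n = 5) against 0.900 ± 0.703 CPM (n = 6), and with vehicle at 8.32 ± 1.79 against 2.47 ± 1.27 CPM (n = 6 each). The change from LPS was -4.93 ± 0.50 (adjusted p = 2.14e-07), and -5.81 with no library of culture WTF3.

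The other rows named in that comparison were set apart by their values with LPS rather than with Tg+PDBu. Row 28004 was at 3.17 to 7.13 CPM in KO and 1.07 to 15.98 CPM in WT with Tg+PDBu, overlapping, and at 2.48 ± 2.81 and 0.0792 ± 0.0955 CPM with LPS (change -6.46 ± 1.50, adjusted p = 0.00352). The WT libraries with LPS held 4 counts of this row in all, with 0 in WTF12, WTF14 and WTF3. The change was -3.95 with limma-voom (adjusted p = 0.0769) and -3.74 with the replicate block (adjusted p = 0.0408). It was -5.77 without the Tg+PDBu library of WTF14, whose LPS library was kept. Row 624 was at 1.95 ± 0.665 and 1.03 ± 0.559 CPM with Tg+PDBu and at 21.1 ± 7.83 and 232 ± 65.0 CPM with LPS (change 4.33 ± 0.50, adjusted p = 1.31e-06). Row 14695 was at 0.518 ± 0.233 and 0.195 ± 0.225 CPM with Tg+PDBu and at 44.2 ± 20.3 and 210 ± 81.4 CPM with LPS (change 4.08 ± 0.93, adjusted p = 0.00283, and 0.0507 with the replicate block). For these 3 rows the genotype difference with Tg+PDBu itself was not called, with adjusted p of 0.429, 0.0770 and 0.0943.

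What the culture numbers stand for is not given in the labels. The comparison was repeated within the cultures numbered up to 10 (KOF7, KOM6 and KOM8 against WTF3, WTM4, WTM9 and WTM10) and gave 2929 rows higher and 2858 lower. Those numbered above 10 were KOF16 and KOM18 against WTF12 and WTF14. In that run both WT libraries are female and 1 KO library is male, so the sexes could not be weighted equally as in the fit of all libraries. The term for sex took up KOM18 in full, so the fit compared KOF16 alone with WTF12 and WTF14. Counts of called rows are therefore not given for it. With a term for the number in the fit of all 34 libraries the counts were 4605 and 4644. In the cultures numbered up to 10 the median log2 fold change fell from 0.92 in the lowest class of level to -0.38 in the highest. In those above 10, where KOF16 alone stood for KO, it fell from 1.28 to -0.46.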

How the data were processed

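RNA of 34 libraries of cultured microglia was counted, 11 of them with Tg+PDBu. The deposited values are raw counts, which the authors left unnormalized. The submitters' processing notes name Salmon 1.10.1, STAR 2.7.10a and Trim Galore 0.6.7, with GRCm38 as the build. The counting settings are not given in the sources used here. Of 45707 rows, 28306 held a count in culture, and 15979 passed filterByExpr (minimum count 10, minimum total 15), holding 99.93% of all counts. TMM factors scaled the libraries (CPM is counts per 1e6 of the scaled library size), and rows were fitted with edgeR 4.0.16 in R 4.3.3 (quasi-likelihood F test, robust), with a mean for each of 12 groups of genotype, sex and treatment. The sexes were weighted equally. All tests were two-sided with Benjamini-Hochberg adjustment over all rows tested, called under 0.05. Each SE is the fold change over the square root of its F statistic. Log2 CPM had 2 as its prior count. Intervals and the 3-count limit cover counting error only. The procedure was tested on simulated data.

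Rows were named by size of the fold change, at most 2 in each direction of a comparison, among rows that were called, averaged 1 or more in log2 CPM and had 1 sign in females and males. For Tg+PDBu, 2 more in each direction were named by CPM difference. Row 1, the sex-specific rows (taken from sorted cells of this series), and the sex comparison had no such limit. Members and lists were chosen with earlier results of these data known. The labels do not say that libraries of a group came from separate animals, so p-values measure the spread between these samples. No 2 libraries of a group agreed within sampling noise. Deviations from group means correlated at 0.0824 to 0.489 in 20 pairs of libraries that share a culture, which the library names give. In 44 pairs of the same genotype and sex that share no culture they correlated at -0.318 to 0.207, so the ranges overlap. Deviations within such small groups are tied to each other, so these values are a description. Alternatives were RLE factors, total counts, DESeq2 1.42.0, limma-voom 3.58.1 with quality weights, no filter, replicate blocks, a term for culture number, and leaving libraries out. The culture block was fitted with limma-voom without quality weights, and the block by the number in the sample titles with edgeR. Where a culture is named as left out, its Tg+PDBu library alone was removed, unless all its libraries are stated.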

Additional observations from a re-analysis of the deposited data

Results flagged for a closer look

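In a test for a single library far from its group, 7 of 43 groups of values were marked, where chance marks about 1 in 20. KOF7 accounted for 4 of them. It was the highest KO library for row 3599 at 1.80 CPM, for row 6097 at 23.8 CPM and for row 7224 at 11684 CPM, and its 10 most abundant rows held 8.14% of its counts, the highest share in KO. In each of these values it was the KO library nearest to WT. The other marked values were row 1805 in WTF3 (1.82 CPM, the highest of WT), row 28004 in KOM18 (7.13 CPM, the highest of KO) and the total of WTF12 (15591237 counts).

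The KO-WT difference of row 19273 differed between the sexes, by 10.71 on the fitted log2 scale (males minus females, edgeR adjusted p = 0.0414). The KO female libraries were at 0 counts, so this fitted value depends on the prior count and is no measure of size. It was 15.48 without WTM10. Against 3 counts over both KO female libraries (0.123 CPM), the WT female level of 3.04 CPM was at least 24.8-fold higher.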

How the results depend on the processing

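The counts of rows higher and lower in KO with Tg+PDBu stayed within 1.5 times the reported counts under RLE factors, DESeq2, limma-voom, no filter, both replicate blocks and the term for culture number, and over the 11 libraries left out in turn they ran from 3715 to 4598 higher and from 3902 to 4723 lower. With no library of culture WTF3 they were 4741 and 4841. They moved to 7160 and 1878 with total counts alone (chosen after seeing the data), to 2929 and 2858 in cultures numbered up to 10, and to 2437 and 1951 in those above 10, which hold fewer libraries.

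The difference from vehicle was called higher for 772 rows, which became 1572 with total counts alone, 1365 with DESeq2 and 1268 with the culture as a replicate block. The 1219 rows called lower became 542, 1857 with limma-voom, 773 with no filter and 2060 with that block. The ranges with libraries left out were 644 to 803 and 788 to 1366. The difference from LPS moved from 1451 to 931 higher rows with total counts alone, and ranged from 1239 to 1418 higher and from 1118 to 1565 lower with libraries left out. The count of rows that differed between the sexes was 2 with total counts alone, 4 with DESeq2, 0 with limma-voom, 0 with each replicate block, 0 with no library of WTF3, 0 in the fit of the 11 libraries alone, and 0 to 2 with libraries left out. With libraries left out, the counts called in females ranged from 1992 to 6216 and those in males from 5429 to 7288. With limma-voom they were 6223 and 8358. Causes were not tested.

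Same-numbered KO and WT titles name different cultures, and the deviations of such libraries correlated at -0.111 to 0.165, and a replicate block by that number within sex gave 4745 higher and 4724 lower rows. Alternatives were run for each named row in the comparison that named it, and there none changed direction. They were not run for row 1, the sex-specific rows or the named rows in other comparisons. Besides the losses given in the report, row 709 lost its difference from vehicle in 7 of 20 alternatives (adjusted p up to 0.0754) and row 19273 its call in 14 of 21 (up to 1.0). Counting depth limits rows under a mean log2 CPM of 1, where single libraries hold few counts.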
